A study of Mus musculus with 2 samples.

Results

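Cxcl12 and 9 other genes through which marrow stroma supports blood-forming cells were compared between M210B4 cells exposed to a CD84-activating antibody and M210B4 cells exposed to an IgG1 isotype antibody. The 10 genes, of 22180 genes with a probe set of their own, were listed by symbol as factors of the haematopoietic niche and their regulators: Cxcl12, Kitl, Vcam1, Angpt1, Hgf, Foxc1, Ebf3, Lepr, Mif and Thy1. The list was drawn up with earlier results of these data known. M210B4 is an established stromal line derived from mouse bone marrow, grown without the blood, vessel and bone cells that surround stroma in the animal. Both cultures of 200000 cells were kept for 24 h in medium with 2% serum, one with the antibody against CD84 and the other with the isotype control, and no other agent is named for either. RNA of each culture was hybridised to 1 Mouse Gene 2.0 ST array of Affymetrix, and every probe set of an array has 1 log2 level. With 1 array per group there is no replicate spread, no standard error and no test, so every difference below is between 2 cultures, and the number of arrays limits its precision.

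The niche is the surrounding that holds haematopoietic stem and progenitor cells in the marrow. Stromal cells of the perivascular kind secrete the chemokine CXCL12, which retains these cells through the receptor CXCR4, and stem cell factor (Kitl), which keeps them alive through the receptor KIT. In the animal, many of these stromal cells carry the leptin receptor, and the transcription factors FOXC1 and EBF3 maintain their production of niche factors.

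Of the 10 genes, 3 were at least 1.5-fold higher after anti-CD84: Cxcl12 (2.15-fold), Hgf (1.82-fold) and Foxc1 (1.68-fold), a size reached upward by 10.7% of all detected genes. None of the other detected members differed by 1.5-fold in either direction, and 0 members were 1.5-fold lower (6.4% of all detected genes). Vcam1, Angpt1, Ebf3 and Mif had log2 differences between -0.03 and 0.06, and Kitl was in between at 0.45. The level of Lepr was under the detection level on both arrays and that of Thy1 after anti-CD84 only.

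The arrays held 41345 probe sets each, with median log2 levels of 4.87 (anti-CD84) and 4.88 (IgG1). A gene was called detected when it exceeded a log2 level of 4.84 on at least 1 array. That level is the 95th percentile of 1394 olfactory and vomeronasal receptor genes, which stroma is not thought to use. By this measure 13284 genes were detected, 11761 of them on both arrays. Of 22 marrow stroma markers measured 16 were detected, among them collagen Col1a1 at 12.52 and 12.53, vimentin (Vim) at 12.77 and 12.70 and Pdgfrb at 11.92 and 11.45 (anti-CD84, then IgG1). Those below the level on both arrays were Nes (4.37 and 4.59), Mcam (4.63 and 4.65), Eng (4.54 and 4.22), Nt5e (4.03 and 3.99), Lpl and Adipoq. The leucocyte marker Ptprc was below it (3.90 and 3.86), and of 9 haematopoietic markers measured only Spi1 was above it, at 4.88 and 5.02. Of 10 endothelial markers 3 were detected. Cdh5 (4.61 after anti-CD84 and 5.56 after IgG1) and Pecam1 (4.32 and 4.99) were above the level after IgG1 only, and Emcn (5.19 and 5.19) on both arrays. The mean level of the endothelial list was 4.40 after anti-CD84 and 4.61 after IgG1, and that of the 12 macrophage markers was 4.54 and 4.70. These means include undetected genes and lie below the detection level. Of the macrophage markers 5 were detected. Cd68 (5.95 and 6.21), C1qa (5.07 and 5.44) and Fcgr1 (4.88 and 5.10) were above the level on both arrays. Csf1r (4.86 and 4.14) and Cd14 (5.00 and 4.55) were above it after anti-CD84 only. The part of such cells in the differences was not tested. Cd84, the receptor the antibody is directed at, was itself below the level on both arrays, at 4.15 and 3.82.

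**Figure D1:**
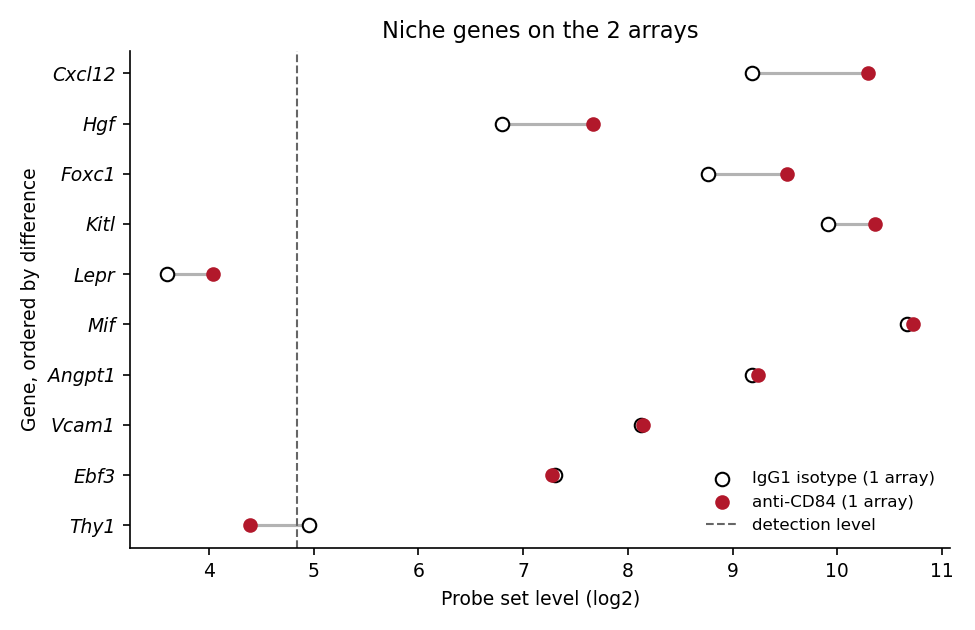
Probe set level (log2, horizontal axis) of the 10 niche genes on the anti-CD84 array (filled red) and the IgG1 array (open), ordered by difference, with the detection level of 4.84 as a dashed line. Cxcl12, Hgf and Foxc1 have the widest gaps, the points of Vcam1, Angpt1, Ebf3 and Mif nearly coincide, and both points of Lepr lie left of the dashed line. Levels of different genes come from different probes and are not comparable as amounts of RNA.

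Promoter windows are shown for the 3 genes past 1.5-fold and, for contrast, for Ebf3, whose level was nearly the same on both arrays. They come from RefSeq (GRCm38.p6) and run from 250 bases before to 50 bases after a gene's start, in the direction of transcription. Of the 10 genes 7 have an entry, with 9 windows in all, and Vcam1, Angpt1 and Thy1 have none. Hgf and Lepr have a pair of annotated starts each. Capitals mark every match, on either strand, to the letters GGGCGG (the GC box), GTAAACA (a forkhead core), CCCNNGGG (the core of the EBF palindrome), ACGTG (the core of the hypoxia element) and CACGTG (the E-box, which contains ACGTG). The windows lie at chr6:117168285-117168584 on the plus strand for Cxcl12, chr5:16553245-16553544 on the plus strand for Hgf (the first of its starts), chr13:31806396-31806695 on the plus strand for Foxc1 and chr7:137314396-137314695 on the minus strand for Ebf3.
Cxcl12: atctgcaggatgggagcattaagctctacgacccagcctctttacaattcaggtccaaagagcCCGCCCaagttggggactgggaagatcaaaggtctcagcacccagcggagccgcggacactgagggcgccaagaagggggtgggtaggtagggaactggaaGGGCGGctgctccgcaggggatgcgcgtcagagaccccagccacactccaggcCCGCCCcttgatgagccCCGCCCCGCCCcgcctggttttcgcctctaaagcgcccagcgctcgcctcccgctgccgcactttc
Hgf: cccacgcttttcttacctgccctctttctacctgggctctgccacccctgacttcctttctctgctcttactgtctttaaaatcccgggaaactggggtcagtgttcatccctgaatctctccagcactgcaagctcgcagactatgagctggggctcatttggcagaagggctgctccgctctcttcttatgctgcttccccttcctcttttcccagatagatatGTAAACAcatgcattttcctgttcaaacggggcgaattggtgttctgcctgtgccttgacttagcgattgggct
Foxc1: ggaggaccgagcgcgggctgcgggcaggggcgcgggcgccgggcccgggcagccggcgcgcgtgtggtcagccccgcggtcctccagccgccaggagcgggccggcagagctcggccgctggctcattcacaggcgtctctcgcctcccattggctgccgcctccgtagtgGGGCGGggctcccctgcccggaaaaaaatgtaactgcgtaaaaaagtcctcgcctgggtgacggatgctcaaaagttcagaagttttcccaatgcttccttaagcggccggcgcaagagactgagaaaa
Ebf3: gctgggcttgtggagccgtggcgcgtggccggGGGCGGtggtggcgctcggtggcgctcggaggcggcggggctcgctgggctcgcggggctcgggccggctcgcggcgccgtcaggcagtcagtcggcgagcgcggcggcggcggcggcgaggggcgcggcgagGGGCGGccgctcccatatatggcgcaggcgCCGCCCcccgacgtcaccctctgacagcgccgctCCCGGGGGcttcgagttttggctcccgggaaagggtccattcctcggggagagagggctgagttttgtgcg

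The Cxcl12 window held 5 GC boxes, beginning at bases 64, 165, 218, 235 and 240 of the window, the last pair sharing 1 base. Of 32817 windows of the same length, 35.6% held at least 1 GC box, 10.7% held 3 or more and 2.71% held 5 or more. The Foxc1 window held 1 GC box, the Ebf3 and Kitl windows 3 each and the Mif window 2, and of the pair of Lepr windows only the second held 1. The Hgf window shown held no GC box but a forkhead core beginning at base 227, letters found in 3.65% of all windows. The second Hgf window held none of the letters searched. The EBF core occurred once, in the Ebf3 window (13.7% of all windows), and the hypoxia core once, in the Mif window (19.6%), while 7.15% of all windows and none of these 9 held the E-box. The Cxcl12 window had 64.7% G and C and 20 CpG dinucleotides, the Foxc1 window 67.3% and 32, the Ebf3 window 77.0% and 46, and the Hgf window 51.3% and 7, beside medians of 52.7% and 7 over all windows. No motif of this set was present for all 3 genes past 1.5-fold. These matches describe letters in a window and are no evidence of binding, and no match says only that the letters are not there.

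Of the secreted factors among the 10 genes, Cxcl12 had the largest difference. Its log2 level was 10.29 after anti-CD84 and 9.19 after IgG1, a difference of 1.10. RNA of a whole culture was measured, so more cells with Cxcl12 RNA and more of this RNA per cell cannot be told apart. Among the 1936 detected genes with a mean log2 level of 9 to 11, to which Cxcl12 belongs, 0.258% were at least 2-fold higher after anti-CD84, which is 5 genes, and only Gstp2, a glutathione transferase, differed more upward (2.37). The differences of these 1936 genes had a median of 0.11 and a standard deviation of 0.31. Differences of single genes at this level therefore spread less than in the range of 5 to 7, where the standard deviation was 0.48. With a curve of difference on level removed, the difference of Cxcl12 was 0.99, just under 2-fold.

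Hgf, hepatocyte growth factor, which acts through the receptor MET, had a log2 level of 7.66 after anti-CD84 and 6.80 after IgG1. Of the 4542 detected genes with a mean level of 7 to 9, 113 others had a difference at least as high as its 0.86, and 9.82% were at least 1.5-fold higher. Kitl was at 10.36 after anti-CD84 and 9.91 after IgG1, 1.37-fold higher, and 227 other genes of its range of level had a difference as high or higher. Cxcl12 and Kitl were thus both higher after anti-CD84. In the same range of level, 227 other genes reached the size of Kitl and 1 that of Cxcl12. Cxcl12 was listed with earlier results of these data known, so its rank only describes the size of the difference.

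Angpt1, angiopoietin-1, a ligand of the receptor TIE2 (Tek), has a pair of probe sets. The brighter gave 9.24 after anti-CD84 and 9.18 after IgG1, a difference of 0.06. The dimmer gave 5.04 and 4.38, a difference of 0.66 with the IgG1 value below the detection level, so for Angpt1 the size depended on the probe set, and the mean of both gave 0.36. Mif, macrophage migration inhibitory factor, a cytokine that signals through CD74 and CXCR4, was at 10.72 and 10.66. The mouse genome holds processed copies of Mif, and whether they share its signal was not examined.

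**Figure D2:**
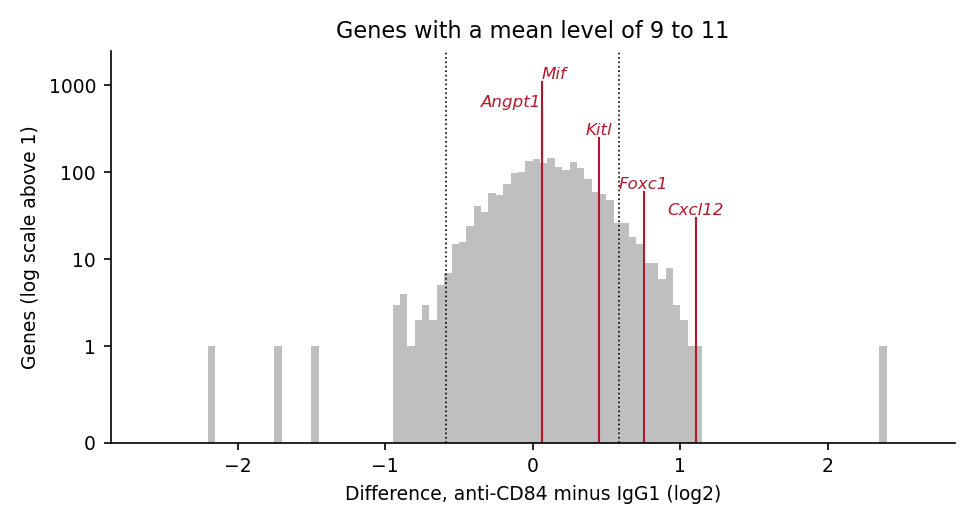
Histogram of the log2 difference (horizontal axis, anti-CD84 minus IgG1) of the 1936 detected genes with a mean level of 9 to 11, with the number of genes on a vertical axis that is logarithmic above 1. Red lines mark the 5 niche genes of this range, their heights carry no meaning, and dotted lines mark 1.5-fold. Cxcl12, at 1.10, is at the upper edge with only 1 gene beyond it, Foxc1 lies past the dotted line, Kitl inside it, and Mif and Angpt1 near the centre.

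The transcription factors that maintain niche stroma had unlike differences. Foxc1, a forkhead factor needed for CXCL12-abundant stromal cells, was at 9.52 after anti-CD84 and 8.77 after IgG1. Of the other genes with a mean level of 9 to 11, 37 had a difference at least as high as its 0.75, and 5.32% of the range were at least 1.5-fold higher. Ebf3, a factor that keeps these cells from turning to bone, was at 7.28 and 7.30. Its relative Ebf1 was 1.29-fold higher (8.69 against 8.32), while Ebf2 was not detected (4.53 and 4.51). Foxc2, the closest relative of Foxc1, was on the other side, at 6.97 after anti-CD84 and 7.52 after IgG1, or 1.46-fold lower. For the forkhead pair, then, the differences had opposite signs.

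The surface proteins were near or below the limits of detection or equal on both arrays. Vcam1, the adhesion molecule that holds blood cells through the integrin of Itga4 and Itgb1, was at 8.14 after anti-CD84 and 8.13 after IgG1, a difference of 0.01. Thy1 (CD90), a surface glycoprotein of many stromal cells, was at 4.39 after anti-CD84, below the detection level, and at 4.95 after IgG1. Its log2 difference was -0.56, which counted from the detection level makes it at least 1.08-fold lower. That figure takes the brighter value as exact. Lepr, the leptin receptor and the best-known marker of perivascular niche stroma, was below the level on both arrays (4.04 and 3.60), so no fold is given. Of 9 adipocyte markers measured, several of which niche stroma shares, 4 were detected. Pparg (7.81 and 8.06) and Cebpa (6.70 and 6.64), transcription factors of the adipocyte lineage, were above the level on both arrays. Fabp4 (4.56 and 5.13) and Plin1 (4.61 and 5.11) were above it after IgG1 only, and Adipoq (3.68 and 3.70) and Lpl (4.29 and 4.12) were among those below it on both.

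**Figure D3:**
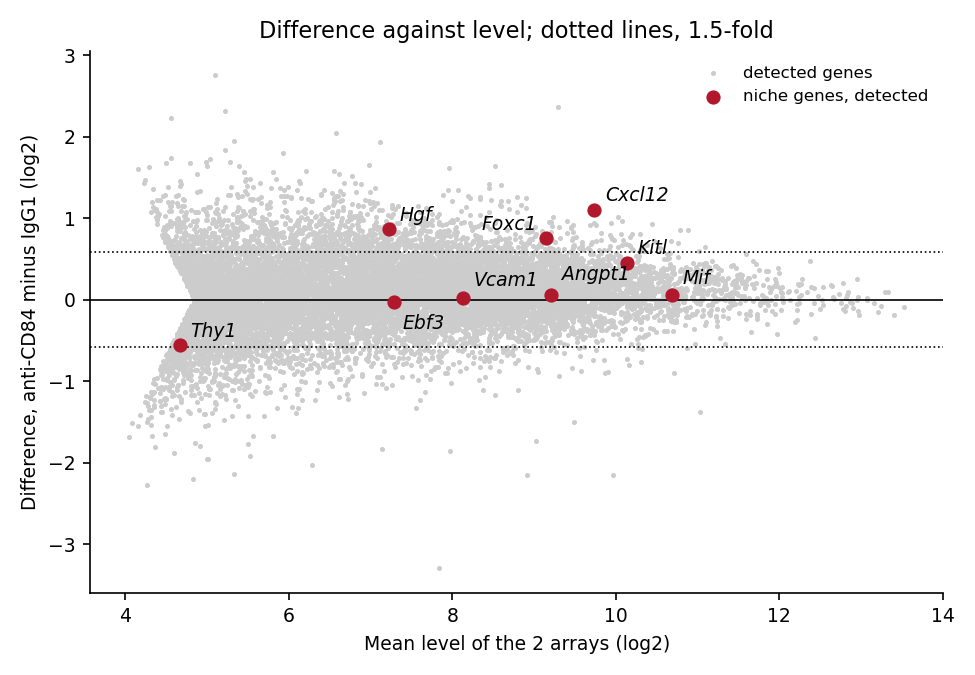
Log2 difference (vertical axis, anti-CD84 minus IgG1) against the mean log2 level of both arrays (horizontal axis) for 13284 detected genes (grey), with the 9 detected niche genes in red and 1.5-fold as dotted lines. Cxcl12, Hgf and Foxc1 lie above the upper line, and the cloud narrows to the right, so that Cxcl12 lies at its upper edge.

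Set beside all genes, 3 of the 9 detected niche genes were at least 1.5-fold higher after anti-CD84, where 10.7% of the 13284 detected genes were. The list was made with earlier results of these data known, so this comparison cannot show that niche genes as a class differ. In the other direction 0 of 9 were 1.5-fold lower, with 6.4% of all detected genes. With differences centred on the median of all detected genes, 0.09, these shares of all genes became 7.71% and 8.49%, the same 3 members were past 1.5-fold, and Thy1 (-0.65) came to be 1.5-fold lower. At 2-fold, Cxcl12 was the 1 member higher, with 1.98% of all detected genes, and 0 members were lower, with 1.43%. All 3 higher members were among the 8 above the detection level on both arrays, where 9.57% of genes were 1.5-fold higher and 3.89% lower. The median difference of the 9 was 0.06, beside 0.09 for all detected genes, so 3 members had large differences while the middle of the set was no higher than that of all genes.

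Of the receptors of these factors and their partners, 20 were on the array and 12 were detected. By the values as measured, which all counts of genes past 1.5-fold use, 1 was 1.5-fold higher and 1 lower, near the 10.7% and 6.4% of all detected genes, with a median difference of 0.09. Ackr3 (CXCR7), the scavenging receptor that takes up CXCL12, was 1.61-fold higher, at 6.81 after anti-CD84 and 6.12 after IgG1. Cxcr4, the signalling receptor, was at 6.19 and 5.90. In the range of mean level of 5 to 7, 466 other genes had a difference as high as that of Ackr3 and 1504 as high as that of Cxcr4. Cxcr2, a further receptor of MIF, was below the detection level after anti-CD84 (4.61) and at 5.76 after IgG1, so it was at least 1.89-fold lower. Met was at 8.52 and 8.34 and Cd44, a co-receptor for MIF, at 8.23 and 8.03. Kit (3.81 and 4.45) and Tek (3.99 and 3.80), the receptors of stem cell factor and angiopoietin-1 on blood and endothelial cells, were below the level on both arrays. Itga4 was at 4.72 and 4.89, the first of these below the level. Cd74 was not analysed here, because its probe set carries a further gene symbol.

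Genes of leptin receptor signalling and traffic were mostly detected, unlike the receptor itself. Of 15 on the array 13 were detected, all on both arrays, and 3 were 1.5-fold higher and 0 lower, with a median of 0.07. Of all genes above the level on both arrays, 9.57% were higher and 3.89% lower. With the mean of all probe sets, with the level curve removed or after quantile normalization, 2 of this list were higher. Stat5b, a signal transducer of cytokine receptors, was 1.89-fold higher (8.34 after anti-CD84 against 7.42). Leprot, which encodes a regulator of leptin receptor traffic, was 1.63-fold higher (9.44 against 8.74). The insulin receptor substrate Irs1 was 1.61-fold higher (7.48 against 6.79), with a dimmer probe set below the detection level on both arrays. Lep, the hormone, was below the level on both arrays (4.25 and 3.17).

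Of 30 detected genes for other secreted niche signals 4 were 1.5-fold higher and 4 lower (median 0.16), beside 10.7% and 6.4% of all detected genes. Counted from the detection level, 3 were higher and 3 lower. Cx3cl1, the membrane-bound chemokine fractalkine, was at 8.16 after anti-CD84 and 7.01 after IgG1, or 2.21-fold higher. The morphogen Bmp4 was at 6.84 and 5.92, or 1.89-fold higher. The lymphocyte cytokine Il15 (5.39 and 3.95) was at least 1.47-fold higher and Il11 (4.30 and 5.14), a cytokine of the IL-6 family, at least 1.23-fold lower, each with 1 array below the detection level. The other higher gene was Sema3a (0.60), and the other lower genes were Ccl2 (-0.74), Pgf (-0.69) and Ccl7 (-0.62), named here to complete the count.

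Genes for the release, cleavage and binding of niche factors had 1 of 22 detected members 1.5-fold higher and 0 lower (median 0.15), where 10.7% and 6.4% of all detected genes were. This was Gjc1, a connexin, at 5.66 after anti-CD84 and 4.97 after IgG1. Among 26 detected transcription regulators of stroma, Foxc1 included, 2 were 1.5-fold higher and 1 lower (median 0.04), and counted from the detection level 2 were higher and 0 lower. Osr1, a zinc finger factor of mesenchymal progenitors, was at 11.42 and 10.77, or 1.57-fold higher. Of the 272 detected genes with a mean level over 11, 0 others had a difference as high. Tcf21, a factor of mesenchymal progenitors too, was at 4.28 and 5.01, so at least 1.13-fold lower. With the differences centred, Foxc1 was the only regulator left past 1.5-fold upward and 2 were lower. Of 16 detected markers of marrow stroma 1 was 1.5-fold higher, Pdgfra, and 0 were lower (median 0.08). The upward shares of these 3 lists were no higher than that of all detected genes.

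**Figure D4:**
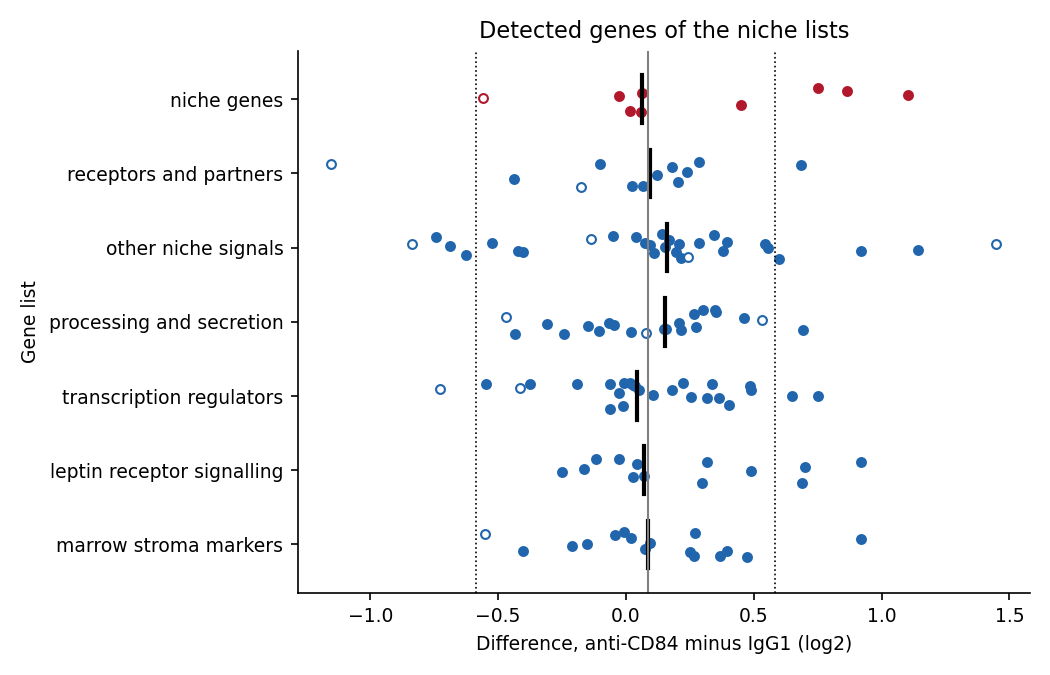
Log2 difference (horizontal axis, anti-CD84 minus IgG1) of the detected genes of the niche set (red) and of 6 related lists (blue), filled where above the detection level on both arrays and open where on 1 only. Black bars are list medians, the grey line is the median of all detected genes (0.09) and dotted lines are 1.5-fold. The medians lie between 0.04 and 0.16, with 1 or more genes beyond the dotted lines in each list.

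Among detected genes with a proper name, Uprt, Cat, Pdgfra and Jkamp had the pair of values most like that of Cxcl12. Likeness was the Euclidean distance of the log2 levels on the 2 arrays, here 0.07, 0.11, 0.13 and 0.15. Provisional symbols, such as those ending in Rik, and families such as olfactory receptors and microRNAs were left out before ranking. Uprt was at 10.23 and 9.15, the antioxidant enzyme catalase (Cat) at 10.21 and 9.27, Pdgfra, a platelet-derived growth factor receptor and stromal marker, at 10.21 and 9.29, and Jkamp at 10.14 and 9.22. Their differences ran from 0.92 to 1.08, so each was 1.89-fold to 2.11-fold higher after anti-CD84. Differences near that of Cxcl12 follow from the way these genes were chosen. A likeness over 2 arrays says only that both probe set levels were near each other, not that the amounts of RNA were.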

How the data were processed

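The authors deposited 1 log2 level per probe set and array; RMA and Partek are named for them, without versions, per the submitters' processing notes. The log2 scale was inferred from the values. The sources used here do not give the genome build or which arrays were normalized together. Labelling started from 200 ng of total RNA, per the labels' protocols.

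Names of probe sets come from the platform annotation in GEO. Of 41345, 23521 have 1 symbol, 1814 several and 16010 none, and only the first were used. A gene with several is given by the brightest. The difference is the anti-CD84 minus the IgG1 log2 level. Calls are folds of 1.5 or 2 among detected genes, with no test. Where 1 array was below the detection level, the fold was counted from that level and written "at least". RMA values of dim genes are compressed, which can understate their folds.

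The members and lists were chosen with earlier results of these data known. Named genes were all members, 12 receptors and relatives, up to 4 genes per list past 1.5-fold by absolute difference, and the 4 genes nearest to Cxcl12. For these last 4, provisional symbols were left out. The alternatives were a centred difference, a lowess curve removed (fraction 0.4), quantile normalization, the mean of all probe sets, no level filter, values floored at the detection level, and a stricter level (6.88). After seeing the data, a demand that both arrays exceed the detection level was added. The counting code was run on simulated data with planted 2-fold changes and noise below the spread of the real differences. This checks the code, not the counts given here. Python 3.11.15, numpy 2.4.6, pandas 2.3.3, statsmodels 0.14.6 and matplotlib 3.10.9 were used.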

Additional observations from a re-analysis of the deposited data

How the results depend on the processing

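Cxcl12, Hgf and Foxc1 were at least 1.5-fold higher under all 8 alternatives, with log2 differences of 0.99 to 1.10, 0.73 to 0.86 and 0.64 to 0.75. The difference of Kitl lay between 0.34 and 0.45. The sign of Vcam1 (-0.11 to 0.01), Angpt1 (-0.05 to 0.36) and Mif (-0.04 to 0.06) depended on the scaling. With the level curve removed, 0 members were 2-fold higher, and with the difference centred 1 member was 1.5-fold lower. Floored at the detection level, Thy1 differed by -0.11. Signal over background limits Thy1 and Lepr. No paired analysis was possible because each group has 1 array, and leaving out a replicate was not run for the same reason.

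Among the related lists, transcription regulators had 1 gene higher and 2 lower at 1.5-fold when centred, with the level curve removed and after quantile normalization, and 0 lower with the stricter level, with floored values and with both arrays above the level. Receptors and partners had 0 higher with the curve removed and after quantile normalization, 2 higher and 3 lower with no filter, 0 of each with the stricter level, and 0 lower with both arrays above the level. Processing and secretion genes had 2 higher with the curve removed and 0 with the stricter level, marrow stroma markers 1 lower when centred, and other niche signals 2 higher and 1 lower with the stricter level. Leptin receptor signalling genes had 2 higher instead of 3 with the mean of all probe sets, with the curve removed and after quantile normalization. The stricter level and the requirement of both arrays test fewer genes. With no filter, genes below the level on both arrays count too, for the receptors Lep (1.08), Kit (-0.64) and Itgax (-0.67). The mean of all probe sets takes in the dimmer probe set of Irs1, with a difference of 0.21. Floored values make Tcf21 1.13-fold lower. For the centred difference, the curve and quantile normalization the cause was not tested. Over all genes, 1427 of 13284 were higher and 850 lower as measured. These counts became 1024 and 1128 when centred, 1120 and 979 with the curve removed, and 1216 and 548 with floored values. After quantile normalization they were 1089 and 1030 of 13262, and with the mean of all probe sets 1382 and 805 of 13149. They were 1799 and 1575 of 22180 with no filter and 742 and 219 of 7481 with the stricter level. With both arrays above the detection level they were 1125 and 457 of 11761.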

Other observations

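Genes of the clock and of the oxygen response, both known to act on Cxcl12 in marrow stroma, were looked up after their values were seen. The clock activators Arntl (7.86 after anti-CD84 and 7.54 after IgG1) and Clock (10.88 and 10.83) and the repressors Nr1d1 (9.97 and 9.80) and Per1 (7.95 and 8.15) were all within 1.5-fold. So were 11007 of the 13284 detected genes, and a part of the clock in the difference of Cxcl12 was not tested. Hif1a was at 10.48 and 10.38, while its dimmer probe set was at 5.02 and 5.57, a difference of the other sign (-0.55). Epas1 was at 4.83 and 5.25, the first of these below the detection level. Of the proteins that handle CXCL12 after its synthesis, the connexin Gja1 was at 10.04 and 9.76 and the protease Mmp14 at 12.01 and 11.66, while the peptidase Dpp4, which inactivates the chemokine, was below the level on both arrays (3.95 and 3.60).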
